A study of Mus musculus with 4 samples.

Results

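The genes of zinc storage and transport were examined in mouse liver, 7 of the 24138 rows of the deposited expression table: the metallothionein genes Mt1 and Mt2, the zinc sensor gene Mtf1, the exporter genes Slc30a1 and Slc30a10, and the importer genes Slc39a14 and Slc39a4. They were chosen by symbol with their levels in these same 4 livers already known, so the levels are a description and carry no test. RNA had been sequenced from liver tissue of 4 C57BL/6J males at 18 weeks of age. Every animal had received both the FAT-MASH diet, a feeding regime that produces steatohepatitis with fibrosis, and RvD1 (resolvin D1), a lipid mediator of the resolution of inflammation. The 4 livers are 1 group, so no effect of diet or of RvD1 can be read from them.

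Zinc in a cell is held in balance by storage, sensing and transport. Metallothioneins are small, cysteine-rich proteins that bind zinc and copper in the cytosol, and in liver their genes are known to respond to metals, glucocorticoids and inflammatory cytokines. Mtf1 encodes a transcription factor with zinc fingers that binds metal response elements in the promoters of Mt1, Mt2 and Slc30a1 when free zinc rises. The Slc30 (ZnT) proteins move zinc out of the cytosol or into compartments, the Slc39 (ZIP) proteins move it into the cytosol, and Slc39a14 and Slc30a10 also carry manganese.

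The promoters are shown because Mt1 and Mt2 varied together while the transporter genes did not follow them to the same extent. The RefSeq promoter table (GRCm38.p6) holds windows for 5 of the 7 genes, Mt1, Mt2, Mtf1, Slc30a1 and Slc30a10. Each window runs from 250 bases before the RefSeq start to 50 after it. The core of the metal response element was searched as TGCACNC and TGCGCNC on both strands, and overlapping matches were counted as 1 site. The part before the start is printed 5′ to 3′ on the plus strand for the 4 genes with a match, with matches in capitals. The windows are chr8:94178839-94179088 for Mt1, chr8:94172368-94172617 for Mt2, chr1:191906531-191906780 for Slc30a1 and chr1:185454598-185454847 for Slc30a10.
Mt1: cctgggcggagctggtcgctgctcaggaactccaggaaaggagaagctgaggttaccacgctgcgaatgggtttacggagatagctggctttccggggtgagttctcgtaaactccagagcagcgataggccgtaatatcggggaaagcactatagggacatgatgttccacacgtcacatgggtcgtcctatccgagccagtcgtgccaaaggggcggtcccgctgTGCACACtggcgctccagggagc
Mt2: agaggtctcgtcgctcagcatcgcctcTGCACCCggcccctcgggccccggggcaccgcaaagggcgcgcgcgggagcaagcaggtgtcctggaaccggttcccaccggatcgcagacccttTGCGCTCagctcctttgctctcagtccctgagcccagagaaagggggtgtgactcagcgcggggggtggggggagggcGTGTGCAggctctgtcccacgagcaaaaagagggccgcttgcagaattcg
Slc30a1: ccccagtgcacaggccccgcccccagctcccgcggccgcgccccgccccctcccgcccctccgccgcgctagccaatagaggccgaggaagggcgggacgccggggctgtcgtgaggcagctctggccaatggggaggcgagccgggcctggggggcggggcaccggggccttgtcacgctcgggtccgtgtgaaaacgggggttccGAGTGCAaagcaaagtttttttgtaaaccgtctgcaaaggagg
Slc30a10: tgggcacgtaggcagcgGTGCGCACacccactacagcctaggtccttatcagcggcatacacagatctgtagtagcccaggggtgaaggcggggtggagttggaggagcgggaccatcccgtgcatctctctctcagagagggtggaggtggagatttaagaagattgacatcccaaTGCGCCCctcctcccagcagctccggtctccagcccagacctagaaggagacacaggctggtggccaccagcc

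Further matches of the 2 metallothionein genes lay just after the RefSeq start, and the first 30 bases from it are shown for that reason (chr8:94179089-94179118 for Mt1 and chr8:94172618-94172647 for Mt2).
Mt1 from the start: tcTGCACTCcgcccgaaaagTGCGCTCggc
Mt2 from the start: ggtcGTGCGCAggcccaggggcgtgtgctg

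Over the whole window Mt2 had 4 sites, at -223 to -217, -128 to -122, -50 to -44 and 5 to 11, counted from the RefSeq start as base 1. Mt1 had 3 sites, at -23 to -17, 3 to 9 and 21 to 27. Of all 32851 promoter windows, 25.7% held at least 1 site, 6.14% at least 2, 1.31% at least 3 and 0.295% at least 4. Slc30a1 had 2 sites (-43 to -37 and 31 to 37), Slc30a10 had 2 (-233 to -226 and -73 to -67) and Mtf1 had 0. GENCODE vM21 lists 3 transcripts of Mt1 that start at 94179082, 94179211 and 94179241, and the RefSeq start that sets the window, 94179089, is nearest to the first. The Mt1 window ends before the later 2 of these starts. The 2 transcripts of Mt2 start at 94172664 and 94172860, both after its RefSeq start of 94172618. Counts and positions of sites therefore hold for the RefSeq starts, and windows set on other starts were not searched. The core of the antioxidant response element, TGACNNNGC, matched once in Mt2 (-79 to -71) and once in Slc30a1 (-82 to -74), and in 12.4% of all windows at least once. These are matches of letters in a window, and no binding was measured.

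The metallothionein genes differed between animals more than almost all other genes. Mt1 (XLOC_020886, chr8:94179089-94180327, plus strand, 3 exons in its first-listed GENCODE transcript) was at 34.1, 389, 51.5 and 189 FPKM in livers 1 to 4. FPKM, fragments scaled by transcript length and by library size, is a level per length and allows genes to be compared. Liver 2 was the highest, 11.4-fold above liver 1 and 2.05-fold above liver 4, and livers 1 and 3 were low. Mt2 (XLOC_020885, chr8:94172618-94173567, plus strand, 3 exons), which lies 5521 bases upstream of Mt1, was at 21.9, 430.4, 32.4 and 109 FPKM. The order of the livers was the same as for Mt1, from liver 1 through livers 3 and 4 to liver 2, and the highest was 19.6-fold above the lowest.

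Both genes had means with wide errors, 166 ± 164 FPKM for Mt1 and 148 ± 192 FPKM for Mt2 (SD, n = 4). Without liver 2 the means were 91.7 and 54.3 FPKM. The range was not confined to liver 2, since liver 4 exceeded liver 1 by 5.56-fold for Mt1 and by 4.96-fold for Mt2. Of the 10541 genes averaging 1 FPKM or more, called expressed here, 6.54% had a range of at least 2-fold between the highest and lowest liver and 0.503% a range of at least 5-fold. Both metallothionein genes passed both marks, and 0 of the other 5 members reached 2-fold. On the log2(FPKM + 1) scale, which understates differences of low genes, the SD between livers was 1.61 for Mt1 and 1.91 for Mt2. Among the 10525 expressed genes above 0 in every liver these were the fourth and the third widest, after Saa2 and Saa1. By the fold between the highest and lowest liver, Mt1 ranked 11 and Mt2 ranked 6 among the same genes.

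**Figure D1:**
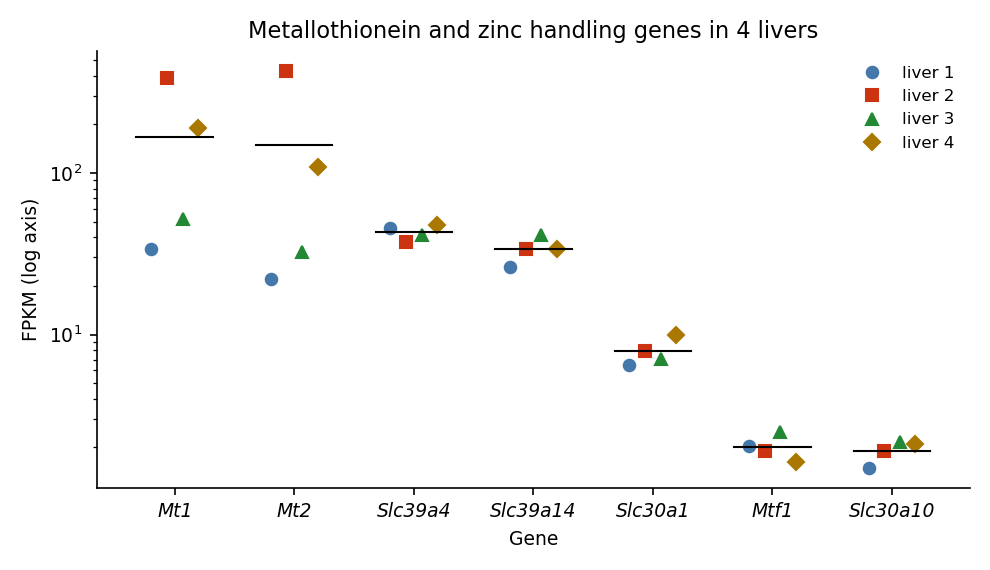
Level of each gene in FPKM (log axis) in livers 1 to 4, with 1 symbol per liver and a horizontal line at the mean of the 4. Mt1 runs from 34.1 to 389 FPKM and Mt2 from 21.9 to 430.4 FPKM, whereas the other 5 genes stay within 1.57-fold.

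The balance between the 2 metallothionein transcripts was close in 3 of the livers. Mt1 exceeded Mt2 by 1.56-fold, 1.59-fold and 1.74-fold in livers 1, 3 and 4, and was at 0.903 of Mt2 in liver 2, which gives a mean ratio of 1.45 ± 0.372 (SD, n = 4). This ratio is taken within a library and does not depend on scaling between libraries. The first-listed GENCODE transcripts of Mt1 (549 bases) and Mt2 (511 bases) share 0 runs of 25 bases. An antisense gene, Gm45774, overlaps 795 bases of the Mt2 span, and the sources used here do not say whether counting used strand. The summed level of both genes was 56.0 FPKM in liver 1 and 819 FPKM in liver 2, a 14.6-fold range. For the remaining genes of the family a listed 0 need not be a low level, since genes known to be abundant in liver are listed at 0 too, such as Alb in all 4 livers and Serpina1b in livers 3 and 4. Mt3, the brain form, was listed at 0 in livers 1 to 3 and at 0.187 FPKM in liver 4, and Mt4, known from stratified epithelia, was listed at 0 in all 4 livers.

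Mtf1, the zinc sensor, did not share this pattern. It was at 2.03, 1.91, 2.50 and 1.63 FPKM in livers 1 to 4 (XLOC_014621, chr4:124802549-124850730). Liver 3 was the highest and liver 4 the lowest, 1.54-fold apart, with a mean of 2.02 ± 0.365 FPKM (SD, n = 4). Its SD of 0.17 on the log2 scale was larger than that of 54.9% of expressed genes. The deposited span also covers 1651 bases of 1110065P20Rik on the other strand, a gene with a row of its own at 14.97 FPKM on average.

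Among the exporter genes, Slc30a1 encodes the transporter that carries zinc across the plasma membrane out of the cell. Its level was 6.49, 7.92, 7.09 and 10.001 FPKM in livers 1 to 4 (XLOC_000648, chr1:191894072-191913247), with a mean of 7.88 ± 1.53 FPKM (SD, n = 4). As for Mt1 and Mt2, livers 2 and 4 were above livers 1 and 3, but the highest was liver 4 and the whole range was 1.54-fold. Slc30a10, which exports manganese and whose loss in people causes manganese overload, was at 1.49, 1.91, 2.15 and 2.10 FPKM (XLOC_000630, chr1:185447116-185468761). Liver 1 was the lowest and livers 3 and 4 were nearly equal, with a mean of 1.91 ± 0.299 FPKM (SD, n = 4). Both spans reach over an antisense neighbour, 1700034H15Rik at Slc30a1 and Gm2061 at Slc30a10, which had means of 0.0934 and 0.221 FPKM.

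Both importer genes were more abundant than both exporter genes in every liver. Slc39a14 encodes a transporter of zinc, manganese and iron that is known to be induced in liver by interleukin 6. It was at 26.3, 33.9, 41.2 and 34.0 FPKM in livers 1 to 4 (XLOC_006790, chr14:70303467-70351424), with a mean of 33.8 ± 6.07 FPKM (SD, n = 4). Liver 3 was the highest and liver 1 the lowest, while liver 2, which had the most metallothionein transcript, was near liver 4. Slc39a4, best known as the zinc importer of the intestine, was at 45.9, 37.4, 41.6 and 47.9 FPKM (XLOC_007479, chr15:76612383-76616852). Here liver 2 was the lowest, the range was 1.28-fold and the mean was 43.2 ± 4.70 FPKM (SD, n = 4). The ratio of Slc39a14 to Slc30a10, the manganese importer and exporter, stayed between 16.2 and 19.2 in the 4 livers. That of Slc30a1 to Mtf1 went from 2.83 in liver 3 to 6.14 in liver 4.

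By mean level the order was Mt1, Mt2, Slc39a4, Slc39a14, Slc30a1, Mtf1 and Slc30a10. The ranges of Mt1 and Mt2 over the livers overlapped each other and those of Slc39a4 and Slc39a14, as did those of Slc39a4 and Slc39a14 and those of Mtf1 and Slc30a10. Slc30a1 lay apart from both of its neighbours in every liver. The order was not the same in each animal: in liver 1 Slc39a4 exceeded both metallothionein genes and Slc39a14 exceeded Mt2, and in liver 3 Slc39a4 and Slc39a14 both exceeded Mt2. The median SD of log2(FPKM + 1) was 0.24 over all 7 members and 0.17 over the 5 without the metallothioneins, against 0.16 over all expressed genes. The SDs of the 5 ran from 0.15 for Slc30a10 to 0.26 for Slc39a14. Their order depended on the pseudocount. With 0.1 in place of 1 they ran from 0.16 for Slc39a4 to 0.27 for Slc30a1, with Slc30a10 at 0.23.

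**Figure D2:**
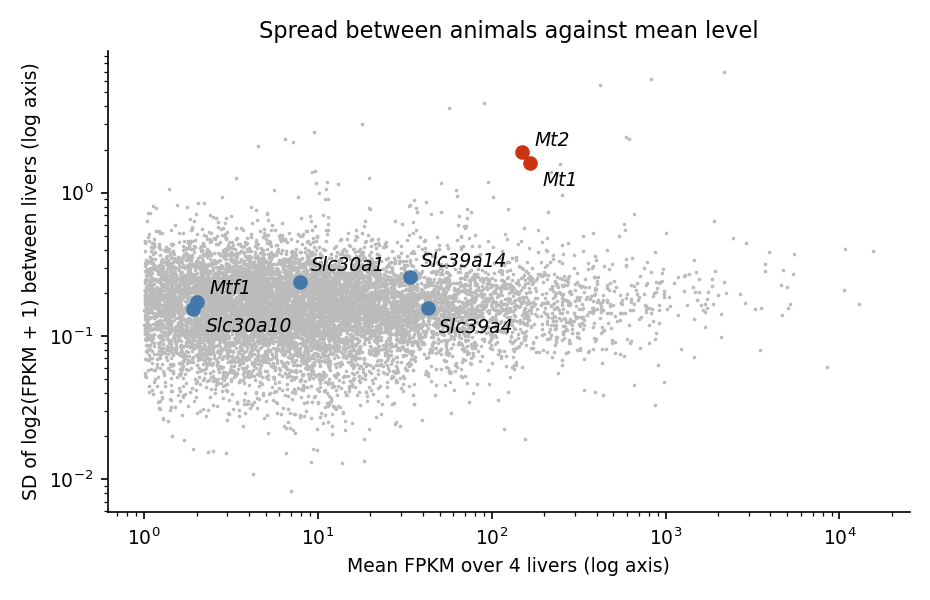
SD of log2(FPKM + 1) between the 4 livers against mean FPKM (both axes log), with 1 grey point per expressed gene and the 7 members coloured. Mt1 (1.61) and Mt2 (1.91) lie far above the body of genes, and the other 5 members, in blue, lie inside it.

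Both transporter families were then examined whole, the 4 member transporters included. Of the 10 Slc30 and 14 Slc39 genes, 7 and 9 were expressed. A range of 2-fold was reached by 0 of these 16, and by 0 of the 12 that are not members, against 6.54% of all expressed genes, a share that these counts lie near. The median range was 1.29-fold over the 16 and 1.28-fold over the 12, beside 1.34-fold over all expressed genes. The most abundant exporter gene was Slc30a9, at 21.3 ± 2.39 FPKM, followed by Slc30a5, a transporter of the secretory pathway, at 12.8 ± 1.39 FPKM (each SD, n = 4). Slc30a7 varied least, from 2.80 to 3.08 FPKM. Slc30a2, Slc30a3 and Slc30a8, the last known from pancreatic beta cells, had means under 1 FPKM.

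Slc39a7, which releases zinc from the endoplasmic reticulum, was at 37.4, 28.7, 39.4 and 43.7 FPKM in livers 1 to 4, and as for Slc39a4 liver 2 was the lowest. Slc39a1 was nearly level at 35.0 ± 1.93 FPKM (SD, n = 4). Slc39a8, the closest relative of Slc39a14, was at 4.90, 5.42, 4.35 and 6.59 FPKM, so that Slc39a14 exceeded it between 5.15-fold and 9.46-fold. Slc39a11, Slc39a9, Slc39a13 and Slc39a3 had means of 14.6, 13.0, 7.10 and 3.31 FPKM. Slc39a5 (0.891 FPKM), Slc39a10 (0.783 FPKM), Slc39a6 (0.502 FPKM) and Slc39a2 (0.225 FPKM) were under 1 FPKM on average. Slc39a12 was listed at 0 in livers 1 and 3 and at 0.0213 and 0.179 FPKM in livers 2 and 4.

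The order of the livers was then compared, a count made after the values were seen. Livers 2 and 4 were both above livers 1 and 3 in 22.2% of all expressed genes. The order was taken from Mt1 and Mt2. Among the other 5 members it held for 1, Slc30a1, which is near that share. It held for 5 of the 7 expressed Slc30 genes, which were Slc30a1, Slc30a4, Slc30a6, Slc30a7 and Slc30a9. It held for 1 of the 9 expressed Slc39 genes, Slc39a8. Liver 4 was the highest for 10 of the 16 expressed transporter genes, against 33.3% of all expressed genes. These differences are within 1.57-fold, and liver 4 was also the highest by the median of all expressed genes, which lay 0.04 above the gene means there on the log2 scale.

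**Figure D3:**
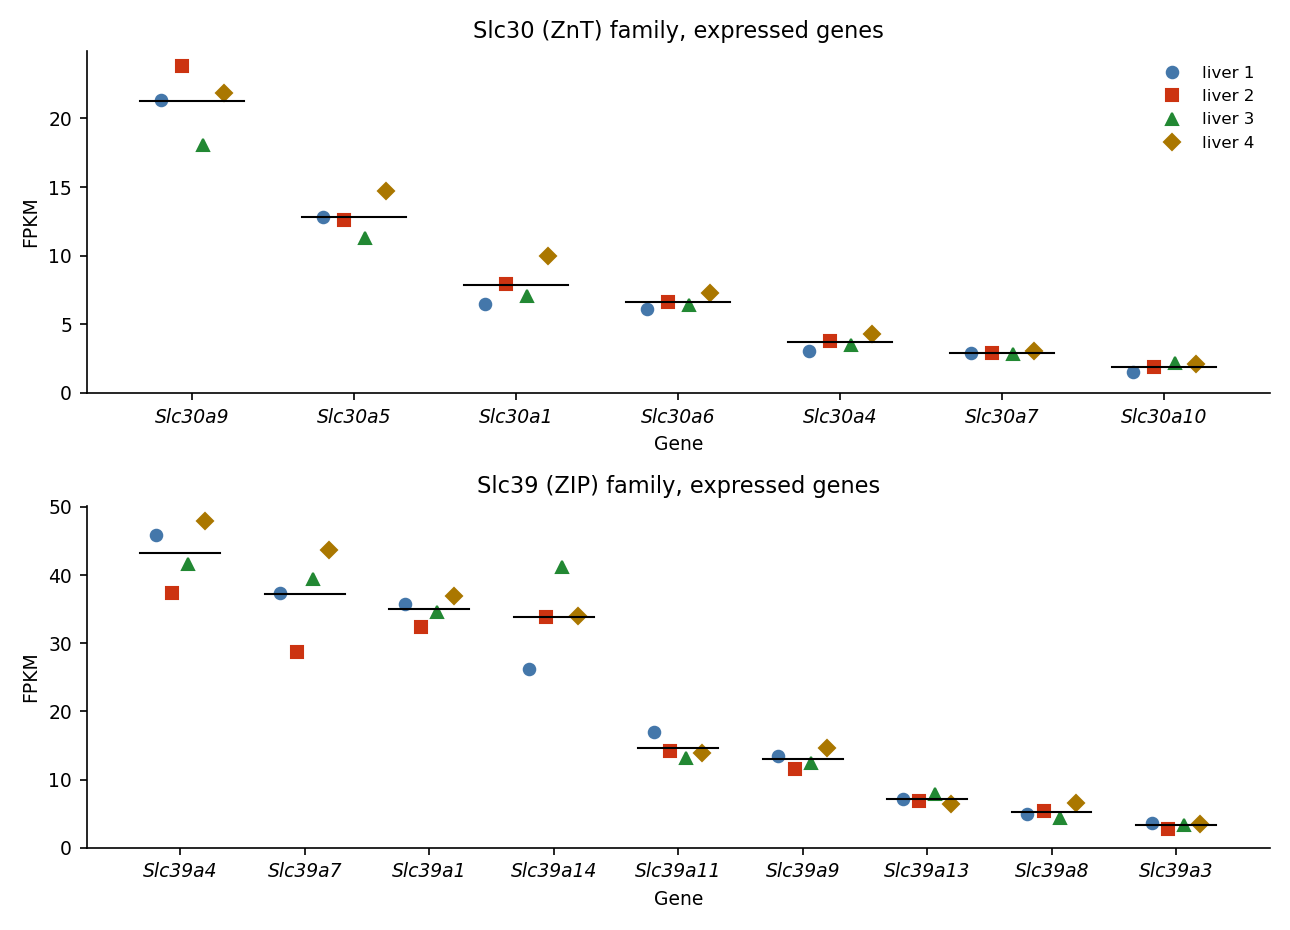
Level in FPKM of the 7 expressed Slc30 genes (upper) and the 9 expressed Slc39 genes (lower) in livers 1 to 4, with a line at the mean. No gene reaches a 2-fold range, and Slc39a14 has the widest at 1.57-fold.

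Of 8 genes reported as Mtf1 targets, 7 were expressed, and 2 of them, Mt1 and Mt2, had a range of 2-fold, against 6.54% of all expressed genes. With 5 other expressed genes on the list, a count of 0 among these is near that share. Livers 2 and 4 were both above livers 1 and 3 in 3 of these 5, Slc30a1, Sepw1 and Gclc, against 22.2% of all expressed genes. Mt1 and Mt2 are left out of this count because the order was taken from them. Sepw1, a selenoprotein gene now named Selenow, was at 134, 159, 146 and 170 FPKM in livers 1 to 4, and Csrp1 at 14.2 ± 3.21 FPKM (SD, n = 4). Ndrg1 was at 2.90, 4.37, 2.68 and 2.78 FPKM in livers 1 to 4, highest in the same liver as Mt1 and Mt2. Of the 5 expressed targets other than Mt1 and Mt2, only Ndrg1 was highest there, near the 22.0% of all expressed genes. Gclc, which makes the first enzyme of glutathione synthesis, was at 87.3, 89.3, 60.7 and 89.99 FPKM, low only in liver 3. Slc39a10, reported to be repressed by Mtf1, stayed between 0.691 and 0.867 FPKM.

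The genes with the profile most like that of Mt1 were sought among 6538 genes averaging 5 FPKM or more, by the root mean square difference of log2(FPKM + 1) over the 4 livers after each gene was centred on its mean. For Mt1 these were Mt2 (0.37), Fgl1 (0.74), Fabp4 (0.79), Acot3 (0.83) and Apcs (0.85). For Mt2 they were Mt1 (0.37), Fgl1 (0.73), Lcn2 (0.87), Fabp4 (0.99) and Apcs (1.00). Fgl1 was at 98.6, 587, 63.8 and 127 FPKM in livers 1 to 4 and Fabp4 at 11.1, 37.5, 11.6 and 18.2 FPKM, so that liver 2 was the highest of both and liver 4 the next. With liver 2 left out, 1 of the 5 genes of each list remained, Mt2 for Mt1 and Mt1 for Mt2. With liver 1 left out, Apcs came before Mt2 for Mt1 and Fgl1 before Mt1 for Mt2. For the other members, between 89 (Slc39a14) and 962 genes (Slc39a4) lay within 0.1, so their nearest genes are not singled out.

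Other gene lists were set beside the metallothioneins. The list of 20 acute phase genes held products that the liver makes in inflammation, and also receptors and regulators of that response. Their median was 0.59 above the gene means in liver 2 on the log2 scale, and lay at -0.25, -0.28 and -0.05 in livers 1, 3 and 4. Of the 20, 13 had a range of at least 2-fold and 4 a range of at least 5-fold, against 6.54% and 0.503% of all expressed genes. Saa1 and Saa2, serum amyloid A genes of similar sequence whose reads the counting may have split between them, had ranges of 46.9-fold and 49.5-fold, wider than those of Mt1 and Mt2. For Saa1 the 4 livers in turn gave 139, 2135, 45.6 and 131 FPKM, and for Saa2 they gave 107, 2106, 42.6 and 96.1 FPKM. Lcn2, which binds bacterial siderophores, was at 114, 714, 55.4 and 103 FPKM, and Saa3 at 19.0, 25.6, 12.2 and 25.3 FPKM. The range of Lcn2, 12.9-fold, was also wider than that of Mt1. Liver 2 was the highest and liver 3 the lowest for all 4 of these genes. In liver 2, 15 of the 20 genes were highest, against 22.0% of all expressed genes. Mt1 and Mt2 were also at their highest there, by 1.85 and 2.47, and stood at 0.82 and 0.50 in liver 4. Liver 4 was above liver 1, the lowest for both metallothionein genes, in 14 of the 20 acute phase genes, against 59.1% of all expressed genes. Livers 2 and 4 were both above livers 1 and 3 in 9 of the 20, against 22.2%. The full order of livers seen in Mt1 was found in 3.58% of expressed genes and in 2 of the 20 acute phase genes, Itih4 and Cebpd, both named after their values were seen.

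The 12 glucocorticoid-responsive genes had medians from -0.09 to 0.10 in the 4 livers, and all expressed genes medians from -0.02 to 0.04. Single genes of the list went both ways, and 5 of the 12 had a range of at least 2-fold and 1 of at least 5-fold, against 6.54% and 0.503% of all expressed genes. The latter, Igfbp1, an insulin-like growth factor binding protein gene named after its values were seen, was at 59.3, 104, 19.6 and 20.1 FPKM in livers 1 to 4. Liver 2 was the highest in 6 of the 12, against 22.0% of all expressed genes, and livers 2 and 4 were both above livers 1 and 3 in 2 of them, Fkbp5 and Nr3c1, against 22.2%. Fkbp5, a chaperone gene that glucocorticoids induce, was at 7.31, 16.1, 8.80 and 12.1 FPKM in livers 1 to 4, and Nr3c1, the glucocorticoid receptor gene, at 11.95, 15.3, 13.5 and 15.1 FPKM. For Nr3c1 livers 2 and 4 were nearly equal. Both genes had the full order of Mt1, a count of 2 of the 12 against 3.58% of all expressed genes. Tsc22d3 (37.0, 43.8, 41.6 and 34.9 FPKM) and Per1 (7.86, 6.41, 11.6 and 7.43 FPKM), likewise induced by glucocorticoids, did not. The median of 8 oxidative stress genes was highest in liver 1, at 0.20, and 1 of the 8 had a range of at least 2-fold. Livers 2 and 4 were both above livers 1 and 3 in 4 of these 8, Hmox1, Gclm, Gclc and Txnrd1, against 22.2% of all expressed genes.

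**Figure D4:**
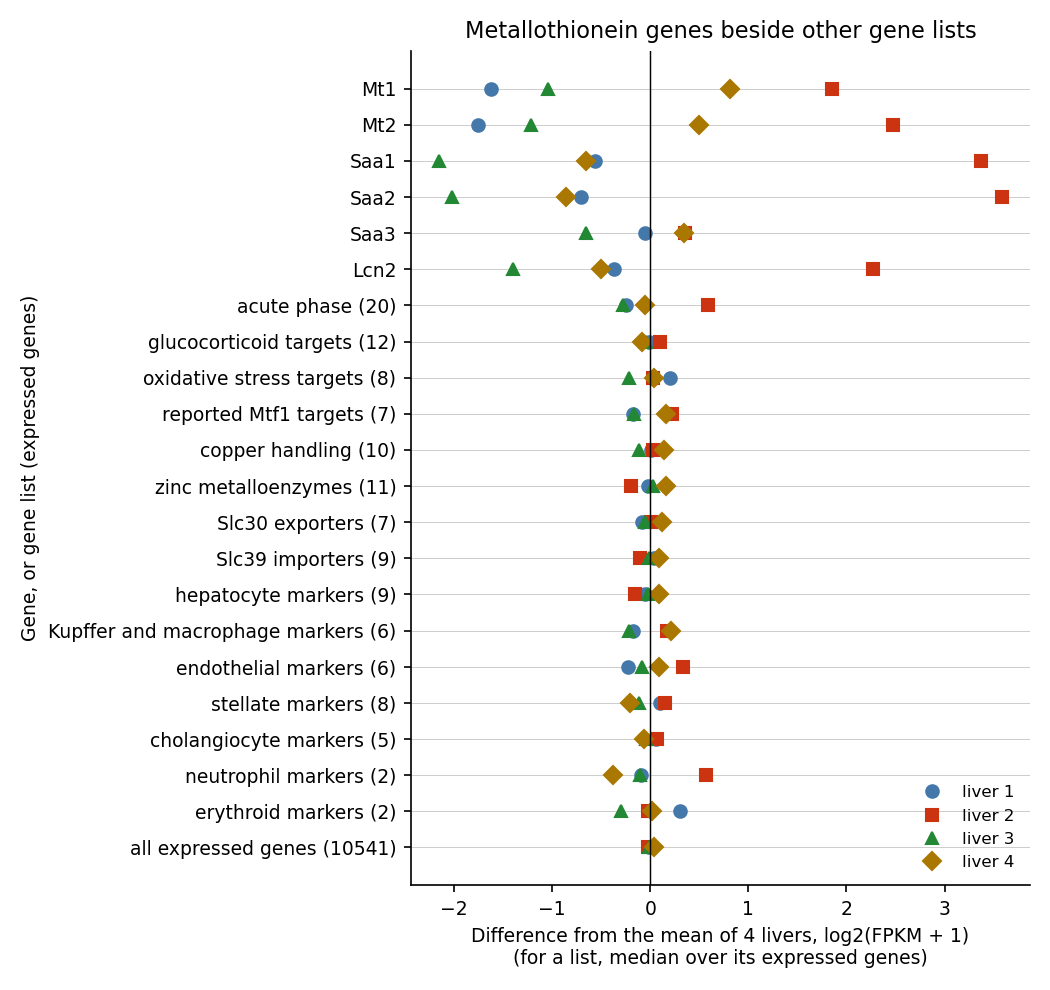
Difference from the mean of the 4 livers in log2(FPKM + 1), for Mt1, Mt2 and the first 4 acute phase genes and as the median over the expressed genes of other lists (number in brackets), with 1 symbol per liver. Mt1 and Mt2 span -1.76 to 2.47 and Saa2 spans -2.02 to 3.58, and the medians of lists, which vary less than single genes, lie between -0.38 and 0.59.

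Markers of cell types were checked, since fewer cells of a type and less RNA per cell cannot be told apart in whole tissue. Sums are over every marker of a list, expressed or not. The 10 hepatocyte markers, 9 of them expressed, summed to between 32369 and 40804 FPKM, and Alb was listed at 0 in every liver. The median of the 9 was lowest in liver 2 (-0.16). The 8 Kupffer cell and macrophage markers, 6 of them expressed, summed to 153, 199, 153 and 208 FPKM in livers 1 to 4, with 0 markers listed at 0. All 6 endothelial markers were expressed and summed to 41.9, 54.5, 46.7 and 53.3 FPKM. In both lists livers 2 and 4 had the higher sums, as for Mt1 and Mt2, and the endothelial sums had the full order of Mt1. Livers 2 and 4 were both above livers 1 and 3 in 5 of the 6 expressed macrophage markers and in 5 of the 6 endothelial markers, against 22.2% of all expressed genes. The full order was found in 2 of the 6 endothelial markers, Kdr and Lyve1, and in 0 of the 6 macrophage markers, against 3.58%. The sums differed by 1.36-fold for macrophages and by 1.30-fold for endothelium, and their part in the metallothionein values was not tested. Stellate cell markers summed to 238, 300.2, 196 and 219 FPKM in livers 1 to 4, and the 5 neutrophil markers to 10.5, 18.6, 11.6 and 8.39 FPKM. Liver 2 was the highest in both sums, and in both of the 2 expressed neutrophil markers. Liver 4 was below liver 1 in both sums. It was above liver 1 for S100a8 (5.19 against 4.22 FPKM) and below it for S100a9 (2.42 against 5.03 FPKM). Livers 2 and 4 both exceeded livers 1 and 3 in 1 of these 2, S100a8, against 22.2% of all expressed genes. The same held for 1 of the 8 stellate markers. Cholangiocyte markers summed to 233, 204, 192 and 213 FPKM. Most of this sum was Spp1, at 214, 182, 171 and 195 FPKM. The median of the 5 cholangiocyte markers had another order, highest in liver 2 (0.07) and lowest in liver 4 (-0.07). The 2 erythroid markers in the table summed to 870.1, 704, 372 and 592 FPKM, a 2.34-fold range with liver 1 the highest. Most of this sum was Hba-a1, at 814, 661, 308 and 535 FPKM. The other, Alas2, did not follow it, at 55.8, 43.8, 64.0 and 57.0 FPKM, with liver 3 the highest and liver 2 the lowest. The part of these lists in the metallothionein values was not tested either.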

How the data were processed

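RNA of 4 livers was measured by sequencing after poly(A) enrichment, per the labels. The values deposited by the authors were taken as FPKM, 1 column per liver, with totals from 516816 to 570681. The header names no unit, and this rests on the values and the identifiers. Per the submitters' processing notes, FastQC 0.10.1, Trim Galore 0.6.3, cutadapt, STAR 2.7.6a, Cufflinks 2.2.1 and mm10 were used. The annotation and strand setting are not given in the sources used here. Starts equalled the RefSeq start (GRCm38.p6) for 3.00% of 22562 symbols as deposited and for 52.0% with 1 added, so 1 was added. Columns were matched through the sample descriptions, with 0 left unmatched.

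Depth was estimated at 18.8 to 20.1 M fragments, from the lowest values of genes with a single transcript, which are approximate. With the first-listed GENCODE vM21 transcript less 200 bases, member values rest on about 137 (Mt2, liver 1) to 2621 fragments (Mt1, liver 2). The length of short transcripts such as Mt1 and Mt2 enters their FPKM strongly. Levels, SDs, ranges and gene counts were computed with Python 3.11.15 and pandas 2.3.3, with a pseudocount of 1 on the log2 scale, and were checked on simulated data. No test between groups was made, since the livers form 1 group with no control. The one mark applied gene by gene was Dixon's, for a liver far from the others. Members and lists were chosen with earlier results of these data known. Named genes are the members, the genes of the metallothionein, Slc30, Slc39, Mtf1 target and copper lists, the first 4 of other lists, and the 5 nearest to a member in profile. Genes outside this rule, named after their values were seen, are Itih4, Cebpd, Txnrd1, Lyve1, Igfbp1, Spp1, Alas2 and Serpina1b, and neighbours that overlap a member. Alternatives were the pseudocount, the filter, median-ratio scaling and leaving out each liver. Protein features were planned and not analysed here.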

Additional observations from a re-analysis of the deposited data

Results flagged for a closer look

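In 7 of 48 genes from the zinc, copper and Mtf1 target lists or nearest to Mt1 or Mt2 in profile, 1 liver stood far from the other 3, judged by its gap to the nearest liver over the whole range of log2(FPKM + 1). The mark is Dixon's 95% critical value for 4 samples, which chance passes in about 1 gene in 20, and 5.46% of all expressed genes passed it. Among the 38 of the 48 that were expressed, 2 passed, near that share. Among the 7 members, 0 passed it. Gclc passed at 0.924, with liver 3 low (60.7 FPKM, against 87.3 to 89.99), and Ndrg1 at 0.845, with liver 2 high (4.37 FPKM, against 2.68 to 2.90). The other 5 were genes with a mean under 1 FPKM. These were Slc30a8 at 0.884 (0.317 FPKM in liver 2 and at most 0.0325 elsewhere), Slc39a2 at 0.871 (0.408 FPKM in liver 1), Slc39a12 at 0.871 (0.179 FPKM in liver 4) and Slc39a6 at 0.833 (0.346 FPKM in liver 4, against 0.536 to 0.578). For Mt3 the ratio was 1, as it was listed above 0 in liver 4 only.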

How the results depend on the processing

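Median-ratio scaling, with factors from 0.993 to 1.03, moved no level, range or spread of a member by more than 1.5 times or 1 SD. Leaving out each liver gave a range of 5.56-fold to 11.4-fold for Mt1 and 4.96-fold to 19.6-fold for Mt2, the lowest without liver 2. The SD of Mt2 then ran from 1.18 to 2.30 and that of Mt1 from 1.27 to 1.86. The mean ratio of Mt1 to Mt2 ran from 1.35 to 1.63. The count of members with a 2-fold range was 2 under every alternative run. The share of expressed genes with such a range was 3.82% to 5.08% with a liver left out, 19.9% with a mean of at least 0.1 FPKM and 2.95% with at least 5 FPKM. The median SD of all expressed genes was 0.11 with a pseudocount of 5. Of the 5 nearest genes, 1 to 3 were shared for Mt1 and 1 to 4 for Mt2 with a liver left out, which leaves 3 points a profile. For the other 5 members, 78 of 85 alternatives kept level, range and spread within these limits, and the remaining changes were in the spread. Without liver 1, for example, the SD was 0.06 for Slc30a10 and 0.16 for Slc39a14. No paired analysis was possible because the livers form 1 group. Values of a few fragments, as for Mt3, do not show a difference at this depth.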

Other observations

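Copper, like zinc, is bound by metallothioneins. Of 11 copper handling genes 10 were expressed and 0 had a 2-fold range, near the 6.54% of all expressed genes. Their median range was 1.33-fold, beside 1.34-fold over all expressed genes, and their median SD of log2(FPKM + 1) was 0.19, beside 0.16. Slc31a1, the copper importer, was at 51.2, 56.9, 54.4 and 54.1 FPKM in livers 1 to 4, and Atp7b, which exports copper into bile and loads ceruloplasmin, was at 5.10, 5.10, 5.29 and 5.20 FPKM. Cp, the ceruloplasmin gene and also an acute phase gene, was at 370.2, 463, 282 and 393 FPKM, highest in the liver with the most metallothionein transcript. Of the 10 expressed copper genes, liver 2 was the highest in 3 and liver 4 in 5, against 22.0% and 33.3% of all expressed genes. Steap3 was at 8.92, 13.2, 14.5 and 15.7 FPKM, lowest in liver 1. Of 11 genes for zinc enzymes, all expressed, 2 had a 2-fold range, against 6.54% of all expressed genes, and their median lay lowest in liver 2 (-0.20) and highest in liver 4 (0.16). Adh1, an alcohol dehydrogenase, was at 2403, 2399, 2717 and 3201 FPKM in livers 1 to 4.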
